A study of Mus musculus with 12 samples.

Results

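Livers that carried both the AEG-1 and the c-Myc transgene (AEG1_MYC) were compared with wild-type livers (WT), 3 libraries against 3, chosen by the genotype that the labels give and set within a series of 12 libraries. AEG1_MYC mice carried Alb/c-Myc together with Alb/AEG-1. WT mice carried neither transgene and came from the same cross of heterozygous lines. The other 6 libraries came from the single transgenic offspring, 3 AEG1 and 3 MYC, and they enter here through the shared estimate of spread and as levels beside those of AEG1_MYC. All mice were adult and naive, with no treatment, and RNA was sequenced from whole liver. In Alb lines the albumin promoter, active in hepatocytes, drives the transgene, and other cell types of the liver are not its target. The labels give no sex, litter, batch or time of collection, and replicate numbers were given in accession order and only name a mouse.

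AEG-1, encoded by Mtdh, is an RNA- and protein-binding protein of the endoplasmic reticulum and nucleus that is raised in many tumours, and c-Myc is a transcription factor that binds DNA with its partner Max and drives growth and division. Hepatocytes along the liver lobule differ in their work. Those around the central vein live under Wnt signalling and express glutamine synthetase, the ammonium carrier Rhbg and many cytochrome P450s, while those around the portal vein make urea and glucose. Wnt ligands stabilise beta-catenin, which activates genes through TCF/LEF factors, and several of those genes encode inhibitors of the pathway.

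Of the 13684 genes tested, 36 (0.263%) were called at an adjusted p under 0.05, 35 higher in AEG1_MYC livers (0.256%) and 1 lower (0.00731%). A gene was tested with edgeR's quasi-likelihood F test over all 12 libraries, with Benjamini-Hochberg adjustment over all genes tested. Fold changes below are log2 values of AEG1_MYC over WT with their SE, and levels are CPM, read counts scaled to a common library size, in the order of replicates 1, 2 and 3. CPM is not divided by gene length, so levels are compared between livers and not between genes. The 3 AEG1_MYC livers lay above all 3 WT livers in 1342 genes (9.81%) and below all of them in 1321 (9.65%), 19.5% in either direction, so the groups were separated about equally often in both directions, while the called genes were almost all higher. Fold changes were positive in 7058 genes and negative in 6626. Counts in the lists below are to be read beside these values for all genes. At an unadjusted p under 0.05 edgeR had 1322 genes higher (9.66%) and 1034 lower (7.56%), 2356 in all (17.2%), and DESeq2 called 446 higher (3.26%) and 206 lower (1.51%). Where 0 members of a list were called below, the edgeR counts at an unadjusted p under 0.05 and the DESeq2 calls stand beside them.

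**Figure D1:**
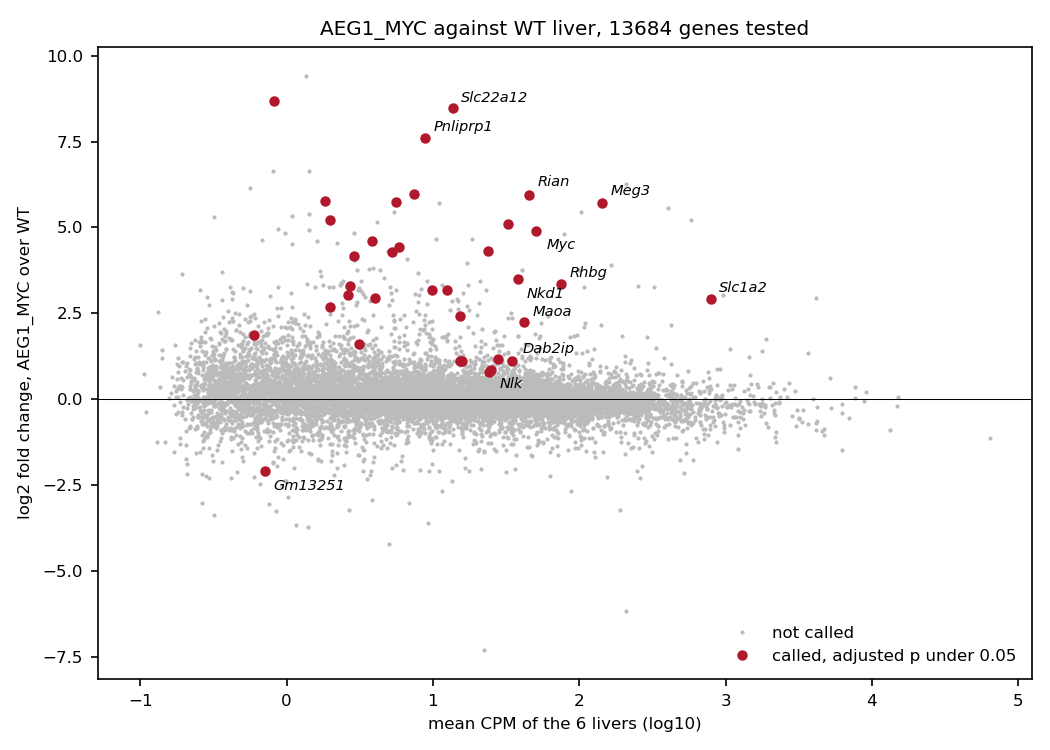
Each point is 1 of the 13684 genes tested, with the mean CPM of the 6 livers on a log10 axis and the log2 fold change of AEG1_MYC over WT on the vertical axis; red points are the 36 called genes. All red points but Gm13251 lie above 0.

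The 3 AEG1_MYC livers were not alike, which bears on every value below. They held 29620172, 28373138 and 31369195 reads in genes, against 33729324, 28595556 and 24909085 in the WT livers. Correlations of log2 CPM between libraries of a group were 0.933 to 0.965 in AEG1_MYC and 0.977 to 0.979 in WT, and the median SD of a gene's log2 CPM was 0.292 and 0.197. In AEG1_MYC replicates 1, 2 and 3, 11.9%, 18.01% and 5.14% of genes stood over 2-fold from the WT mean, while 5.16% to 5.95% did so in a WT liver set against the other 2 WT livers. Replicate 2 thus stood farthest from WT. The share of replicate 3 was near those of the WT livers, but each WT liver was set against a mean of 2 livers and not 3. Set against the same 3 WT livers, MYC livers had 4.30% to 4.47% and AEG1 livers 3.64%, 4.26% and 6.80%. The clock score, the mean log2 CPM of late-phase clock genes minus that of early-phase clock genes, was -2.23, -1.49 and -3.07 in AEG1_MYC and -0.275, 1.72 and -1.39 in WT livers. Its groups did not overlap, and collection time and genotype cannot be told apart here. In replicate 2 the Y-linked Ddx3y was at 3.94 CPM, against 135 and 102 CPM in replicates 1 and 3 and 123 to 158 CPM in WT, with Xist at 0.533 CPM there, so neither sex marker was high in that liver.

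The genes of the transgenes were read as a check of the labels. Myc had 73.0, 165 and 58.4 CPM in AEG1_MYC livers, against 4.73, 2.79 and 2.26 CPM in WT livers. Every AEG1_MYC liver was above every WT liver, and the rise was 4.91 ± 0.50 on the log2 scale (edgeR adjusted p = 0.00345). MYC livers had 23.4, 30.5 and 53.8 CPM, all below the 3 AEG1_MYC livers, and the difference of 1.46 ± 0.42 between AEG1_MYC and MYC was not called (edgeR adjusted p = 0.201). Mtdh had 112, 91.5 and 89.0 CPM in AEG1_MYC livers and 99.9, 101.5 and 99.4 CPM in WT livers, and the groups overlapped (-0.04 ± 0.10, edgeR adjusted p = 0.858). The labels do not give the species of the AEG-1 transgene, so mouse Mtdh does not check that label.

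The partners of the transgenes' own products were read next. Of 14 genes of the MAX network, which pair with Max as Myc does or compete with it, 0 were called by edgeR and 7 were higher in all AEG1_MYC livers than in all WT livers, with a median of 0.09 against 0.01 over all genes. At unadjusted p 5 were higher and 1 lower, and DESeq2 called 2 higher, Max and Mxd3. Mxd3, a repressor that pairs with Max, had 0.595, 1.24 and 0.321 CPM in AEG1_MYC livers, against 0.153, 0.0766 and 0.214 CPM in WT livers (2.27 ± 0.58, edgeR adjusted p = 0.127). Max had 35.2, 48.5 and 27.9 CPM in AEG1_MYC livers, against 22.9, 25.6 and 19.9 CPM in WT livers (0.71 ± 0.18, edgeR adjusted p = 0.123), and Mnt, also a repressor that pairs with Max, had 21.6, 24.5 and 19.3 CPM against 15.1, 15 and 17.9 CPM (0.45 ± 0.16, edgeR adjusted p = 0.202). All 3 were above WT in every AEG1_MYC liver without passing the edgeR test. Of 12 partners and targets of AEG-1, 0 were called by edgeR and 2 did not overlap, both higher, with a median of 0.01. At unadjusted p 4 were higher, and DESeq2 called 2 higher.

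Wnt feedback inhibitors and targets held the firmest result. Nkd1, which binds Dishevelled and damps Wnt signalling and is itself switched on by it, had 59.9, 83.9 and 66.2 CPM in AEG1_MYC livers, against 7.14, 5.86 and 5.55 CPM in WT livers. The 3 AEG1_MYC values lay close together and the lowest was 8.39 times the highest WT value. The rise was 3.50 ± 0.16 (edgeR adjusted p = 3.42e-06), and Nkd1 was called in 22 of 22 alternative settings, with the fold change between 3.35 and 3.63. It stood at 5.68 to 5.77 CPM in AEG1 livers and 4.32 to 5.27 CPM in MYC livers, within or below the range of WT.

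Other genes of the pathway pointed the same way in AEG1_MYC livers but varied more. Of 21 tested members of a list of Wnt feedback and target genes, Nkd1 and Myc were called, 8 were higher and 1 was lower in all AEG1_MYC livers than in all WT livers, and 17 had positive fold changes, with a median of 0.87. Without AEG1_MYC replicate 2 that median was 0.47, and without replicate 3 the calls were 6, all higher. DESeq2 called 8 of the 21 higher and 0 lower. Myc carries its transgene here and is no independent member. The stem cell receptor Lgr5 had 14.3, 73.9 and 15.9 CPM in AEG1_MYC livers and 13.8, 6.01 and 5.55 CPM in WT livers. Replicate 2 alone stood far above, while replicates 1 and 3 were just past WT replicate 1 (2.03 ± 0.61, edgeR adjusted p = 0.167). Axin2, a scaffold of the beta-catenin destruction complex and a feedback inhibitor, had 28.4, 70.4 and 34.8 CPM against 15.6, 17.3 and 12 CPM in WT (1.57 ± 0.48, edgeR adjusted p = 0.170). The transcription factor Sp5, a direct Wnt target, had 7.30, 25.3 and 8.38 CPM against 2.99, 2.64 and 1.71 CPM in WT (2.48 ± 0.51, edgeR adjusted p = 0.0921). In both, each AEG1_MYC liver lay above each WT liver and replicate 2 was highest.

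Lef1, a DNA-binding partner of beta-catenin that is scarce in adult liver, was just outside the threshold. It had 45, 94 and 16 reads in AEG1_MYC livers, against 0, 1 and 0 reads in WT livers. The pooled ratio was 134, with an exact 95% interval of 23.7 to 5330 that covers counting error only (edgeR adjusted p = 0.0535). Cyclin D1, Ccnd1, often given as a Wnt target, had 67.6, 54.1 and 31.3 CPM in AEG1_MYC and 138, 58.6 and 42.8 CPM in WT livers, overlapping groups with WT replicate 1 highest (-0.65 ± 0.49, edgeR adjusted p = 0.518).

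Ligands, receptors and the core of the pathway gave no edgeR call with all libraries. Of 23 such genes tested 0 were called, 0 were above WT in all AEG1_MYC livers and 5 were below, with a median of -0.07. At unadjusted p 0 were higher and 3 lower, and DESeq2 called Rspo3 lower. The ligand Wnt11 went the other way and had too few reads to be tested with all libraries, at 29, 10 and 5 reads in AEG1_MYC livers, against 0, 0 and 1 reads in WT livers. Without AEG1_MYC replicate 3, Wnt11 was tested and called higher, and the ligands Wnt2 and Wnt4 were called lower. Rspo3, a secreted amplifier of Wnt signalling made by central vein endothelium, had 5.05, 1.84 and 5.39 CPM in AEG1_MYC and 11.7, 8.46 and 7.52 CPM in WT livers (-1.18 ± 0.33, edgeR adjusted p = 0.148). The ligand Wnt5a had 1.85, 1.27 and 1.22 CPM against 3.72, 3.18 and 2.22 CPM in WT (-1.07 ± 0.44, edgeR adjusted p = 0.252), so both were below WT in each AEG1_MYC liver but not called. Ctnnb1, which encodes beta-catenin, had 368, 371 and 355 CPM in AEG1_MYC and 388, 351 and 380.2 CPM in WT livers (-0.03 ± 0.10, edgeR adjusted p = 0.884). In whole tissue, fewer cells of a type and less RNA per cell cannot be told apart.

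Called rises that were small and even included Nlk, Dab2ip and Rasgrf2. Nlk, nemo-like kinase, which phosphorylates TCF/LEF factors, had 31.0, 34.9 and 26.5 CPM in AEG1_MYC livers, against 18.7, 14.7 and 19.4 CPM in WT livers (0.81 ± 0.13, edgeR adjusted p = 0.0381). Its lowest AEG1_MYC value was 1.36 times the highest WT value, the smallest such gap among the called rises. The Ras GTPase-activating protein Dab2ip had 48.1, 55.1 and 39.7 CPM against 21.7, 19.3 and 25.2 CPM in WT (1.11 ± 0.17, edgeR adjusted p = 0.0288). The Ras exchange factor Rasgrf2 had 4.59, 5.33 and 4.17 CPM against 1.62, 1.38 and 1.58 CPM in WT (1.62 ± 0.23, edgeR adjusted p = 0.0241). The groups were apart in all 3 genes, with replicate 2 highest and replicate 3 lowest in each. The kinesin Kif26b rose more and less evenly, with 5.58, 22.4 and 5.62 CPM against 0.671, 0.306 and 0.555 CPM in WT (4.43 ± 0.69, edgeR adjusted p = 0.0352).

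Promoters of the called genes were read for the core of the TCF/LEF site and for the E-box that Myc and Max bind. RefSeq windows of 250 bases before to 50 after each start (GRCm38.p6) were at hand for 26 of the 35 genes called higher, 31 windows in all. CTTTGA or CTTTGT, searched on both strands, was in 8 of the 31 windows (25.8%), against 24.4% of 13735 windows of tested genes and 31.2% of the 32851 windows in the whole table as read. CACGTG, which reads the same on both strands, was in 4 windows (12.9%), of Abcc4, Rasgrf2, Tmc6 and Tuba8, against 9.63% and 7.15%. The shares were read as a description and no test was made. The windows of Nkd1 and Pnliprp1, the genes called in every setting, are shown with those of Slc1a2, which holds the TCF/LEF core at positions -206 and -77 from the start, and of Meg3, which holds it at -52. Capitals mark the core, written TCAAAG where it lies on the other strand. Nkd1 and Pnliprp1 have neither motif in these windows.
Nkd1, chr8:88527383-88527682, + strand: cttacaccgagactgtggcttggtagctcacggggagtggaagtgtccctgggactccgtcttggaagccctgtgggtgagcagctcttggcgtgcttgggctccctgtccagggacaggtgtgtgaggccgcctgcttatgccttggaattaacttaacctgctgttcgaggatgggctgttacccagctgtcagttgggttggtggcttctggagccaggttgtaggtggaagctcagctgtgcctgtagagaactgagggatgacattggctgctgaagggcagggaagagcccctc
Pnliprp1, chr19:58728637-58728936, + strand: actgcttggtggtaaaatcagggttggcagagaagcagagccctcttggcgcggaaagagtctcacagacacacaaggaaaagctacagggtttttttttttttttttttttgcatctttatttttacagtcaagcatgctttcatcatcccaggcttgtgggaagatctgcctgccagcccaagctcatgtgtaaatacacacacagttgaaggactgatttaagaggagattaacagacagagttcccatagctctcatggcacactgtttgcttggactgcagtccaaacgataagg
Slc1a2, chr2:102706188-102706487, + strand: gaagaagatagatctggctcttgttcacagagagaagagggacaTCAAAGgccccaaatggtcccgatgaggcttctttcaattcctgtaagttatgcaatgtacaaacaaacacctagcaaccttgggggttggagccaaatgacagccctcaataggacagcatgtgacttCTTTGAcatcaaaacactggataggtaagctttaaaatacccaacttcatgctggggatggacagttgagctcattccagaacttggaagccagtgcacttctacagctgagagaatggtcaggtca
Meg3, chr12:109540746-109541045, + strand: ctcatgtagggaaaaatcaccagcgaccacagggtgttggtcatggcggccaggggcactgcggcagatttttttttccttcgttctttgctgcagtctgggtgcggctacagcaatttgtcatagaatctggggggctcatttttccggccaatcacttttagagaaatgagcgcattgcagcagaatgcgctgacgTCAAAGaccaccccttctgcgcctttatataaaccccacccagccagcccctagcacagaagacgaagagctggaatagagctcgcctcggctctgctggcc

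Genes of pericentral hepatocytes were mostly higher in AEG1_MYC livers, in an uneven way. Of 28 members 2 were called, both carriers, 11 were above and 1 was below WT in all AEG1_MYC livers, and 25 had positive fold changes, with a median of 0.91. The calls depended on the libraries, with 10 higher and 1 lower without AEG1_MYC replicate 3, 1 without AEG1_MYC replicate 2 or WT replicate 1, and 0 without WT replicate 2, without WT replicate 3 or with the 6 libraries alone. Rhbg, which passes ammonium through the membrane, had 101, 239 and 72.9 CPM in AEG1_MYC livers, against 14.6, 12.1 and 13.4 CPM in WT livers, a rise of 3.37 ± 0.44 (edgeR adjusted p = 0.0156). The glutamate carrier Slc1a2 had 1185, 2292 and 742 CPM against 302, 114 and 138 CPM in WT (2.93 ± 0.45, edgeR adjusted p = 0.0334). Its promoter window, shown above, holds the TCF/LEF core at -206 and -77. That core was in 25.8% of windows of genes called higher and 24.4% of windows of tested genes. Its part in the rise was not tested. In Rhbg and Slc1a2 all AEG1_MYC livers were above all WT livers, replicate 2 most and replicate 3 least.

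Other pericentral genes were not called by edgeR, and their fold changes differed widely. DESeq2 called 13 of the 28 members higher and 0 lower, Glul, Cyp2a5 and Oat among them. Glutamine synthetase, Glul, had 3064, 15863 and 3070.5 CPM in AEG1_MYC livers, against 1427, 734 and 685 CPM in WT livers (2.95 ± 0.65, edgeR adjusted p = 0.0959). The coumarin hydroxylase Cyp2a5 had 1624, 2544 and 1002 CPM against 219, 96.6 and 321 CPM in WT (3.02 ± 0.57, edgeR adjusted p = 0.0704), and ornithine aminotransferase, Oat, had 1924, 4682 and 2186 CPM against 1166, 644 and 807 CPM in WT (1.75 ± 0.43, edgeR adjusted p = 0.121). All 3 were higher in every AEG1_MYC liver. The alcohol-inducible Cyp2e1 overlapped, with 6296, 10840.0 and 8831 CPM in AEG1_MYC and 7929, 6145 and 6266 CPM in WT livers (0.35 ± 0.23, edgeR adjusted p = 0.448). Cyp2c29, the member below WT throughout, had 806, 1015 and 2149 CPM against 2885, 3438 and 3051 CPM in WT (-1.24 ± 0.48, edgeR adjusted p = 0.227).

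Replicate 2 carried much of the zonal pattern, and most of its periportal genes were very low. Above every WT liver lay 16, 25 and 15 of the 28 pericentral genes in AEG1_MYC replicates 1, 2 and 3, where 32.8%, 35.6% and 26.0% of all genes did so. Below every WT liver lay 6, 23 and 1 of the 24 periportal genes, against 31.6%, 37.2% and 26.0% of all genes, and 1, 15 and 1 of them were under 0.25 times the WT mean. Cyp2f2, a P450 of portal hepatocytes, had 508, 2.70 and 1039 CPM in AEG1_MYC and 690.1, 1598 and 1365 CPM in WT livers. The histidine-degrading enzyme Hal had 108, 1.99 and 273 CPM against 194, 392 and 419.5 CPM in WT, and Cps1, the first enzyme of the urea cycle, had 3101, 175 and 3436 CPM against 2765, 3638 and 5119.8 CPM in WT. In each, replicate 2 was far below all other livers while replicate 1 or 3 lay within or near the range of WT. With all libraries 0 of the 24 periportal genes were called and 0 were separated between the groups, with a median of -0.27. At unadjusted p 3 were lower, and DESeq2 called 0. Without replicate 2 that median was 0.21, and the pericentral median was 0.61. Without replicates 1 and 2 the pericentral median was 0.41 and the periportal one -0.01.

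**Figure D2:**
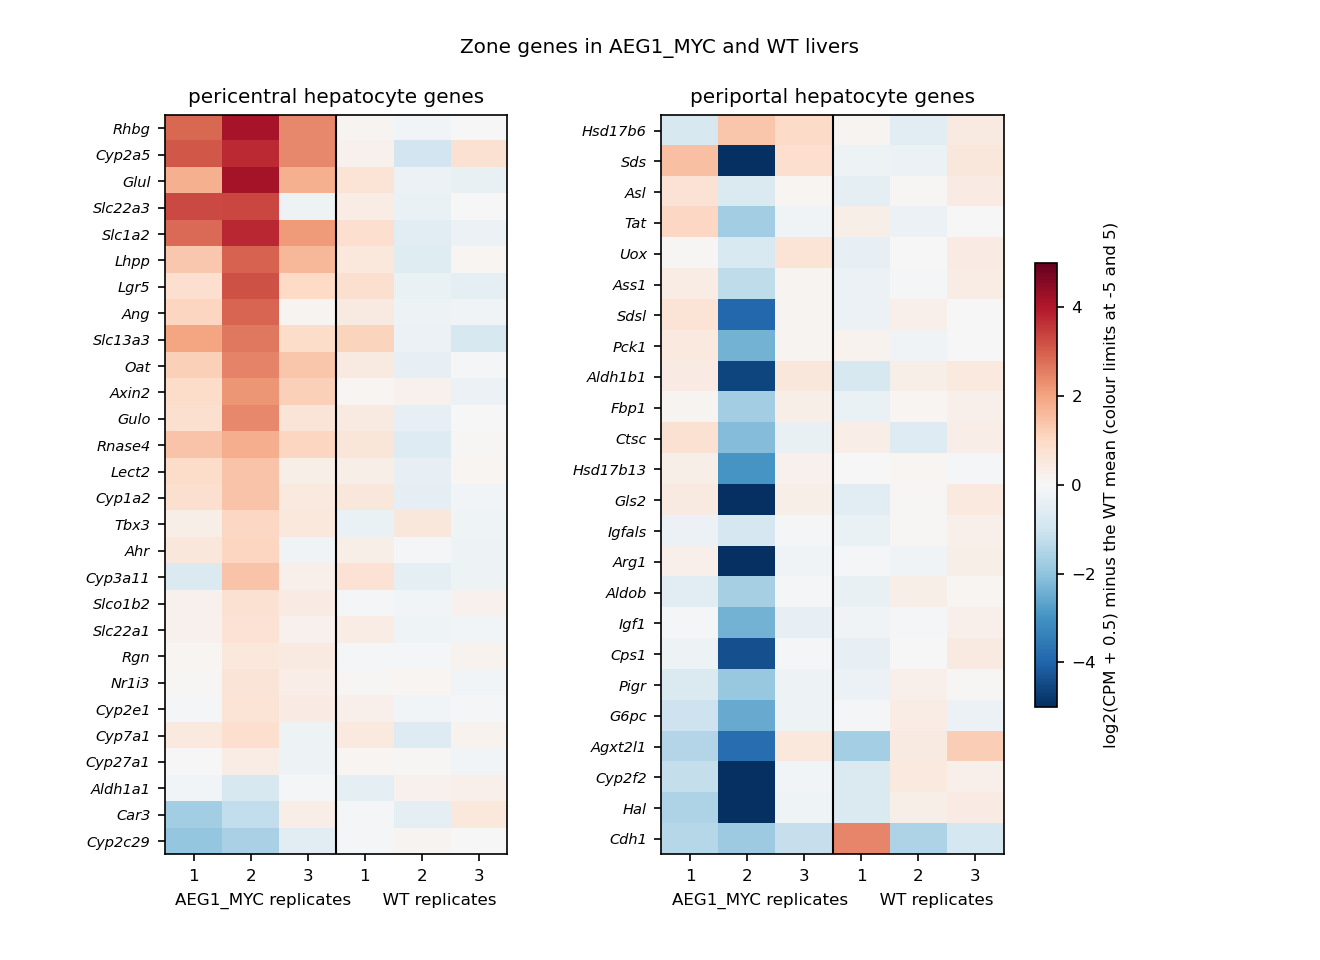
Columns are the 3 AEG1_MYC and 3 WT livers and rows are the 28 pericentral (left) and 24 periportal (right) genes; colour gives log2(CPM + 0.5) minus the WT mean, with colours limited to -5 and 5. In most rows AEG1_MYC replicate 2 has the highest pericentral or the lowest periportal level, while Rhbg, Cyp2a5, Glul and Slc1a2 are high in all 3 AEG1_MYC livers.

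The noncoding transcripts of the imprinted Dlk1-Dio3 region on chromosome 12, which are expressed from the maternal allele and are low in adult liver, rose together. Meg3, a long noncoding RNA, had 349, 273 and 221 CPM in AEG1_MYC livers, against 0.610, 7.69 and 7.99 CPM in WT livers (5.71 ± 0.85, edgeR adjusted p = 0.0304). Rian, a host of small nucleolar RNAs, had 125, 70.2 and 72.2 CPM against 0.488, 1.88 and 2.05 CPM in WT (5.95 ± 0.61, edgeR adjusted p = 0.00345). Mirg, a host of microRNAs, had 5.81, 2.34 and 3.47 CPM against 0, 0.115 and 0.214 CPM in WT (5.20 ± 0.80, edgeR adjusted p = 0.0334). In these genes all AEG1_MYC livers were far above all WT livers and replicate 1, not 2, was highest. The small nucleolar RNA AF357359 had 4.63, 3.53 and 2.70 CPM against 0, 0.0766 and 0.128 CPM in WT (5.77 ± 0.75, edgeR adjusted p = 0.0156).

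Of 16 genes listed for the region 11 were in the files, 6 were tested and 4 were called, all noncoding. The calls fell to 1, Rian, without WT replicate 2 and likewise without WT replicate 3, to 2 with the clock score as a covariate, and to 0 with the 6 libraries alone or without AEG1_MYC replicates 1 and 2 together. The neighbours Wars (-0.12 ± 0.15) and Wdr25 (-0.02 ± 0.27) had edgeR adjusted p values of 0.698 and 0.968. The protein-coding genes of the paternal allele had too few reads to be tested. Dlk1, a Notch-like ligand of fetal liver, had 5, 5 and 0 reads in AEG1_MYC and 1, 0 and 2 reads in WT livers, and Rtl1 had 16, 3 and 9 reads against 1, 0 and 0 reads. The deiodinase Dio3 had 10, 7 and 0 reads in AEG1_MYC and 0, 1 and 1 reads in WT livers. In AEG1 livers Meg3 was at 25.0, 20.5 and 5.62 CPM and in MYC livers at 6.91, 4.01 and 5.88 CPM, all below the AEG1_MYC livers. Elsewhere in the genome 15 imprinted transcripts were tested with 0 called by edgeR and a median of -0.13. Of these, 2 (13.3%) were above and 4 (26.7%) below WT in all AEG1_MYC livers, against 9.81% and 9.65% of all genes. At unadjusted p 4 were higher and 3 lower, and DESeq2 called 2 higher and 2 lower. Reads of transcripts that overlap on opposite strands in this region cannot be told apart, since the strand setting is not given.

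Pnliprp1, pancreatic lipase related protein 1, was near 0 in every other liver of the series and rose in all AEG1_MYC livers. It had 11.5, 26.1 and 15.5 CPM in AEG1_MYC livers, against 0.0305, 0.115 and 0.128 CPM in WT livers, with at most 0.251 CPM in any single transgenic liver. The rise was 7.61 ± 0.56 (edgeR adjusted p = 2.93e-04), and it was called in 22 of 22 alternative settings. Markers of pancreatic acinar cells were not higher with it. Pancreatic lipase, Pnlip, had 0, 1 and 0 reads in AEG1_MYC and 0, 0 and 0 reads in WT livers, and Cpa1, Cpb1, Prss2 and Cel had 0 reads in all 6. The summed level of the 10 acinar markers was 17.5, 15.02 and 43.0 CPM in AEG1_MYC and 43.4, 36.5 and 58.7 CPM in WT livers. Nearly all of it was Cela1, at 17.5, 14.6 and 42.8 CPM in AEG1_MYC and 43.3, 36.4 and 57.8 CPM in WT livers.

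Slc22a12, Mogat2 and Abcc4 rose as well, with replicate 3 lowest, while the lists they belong to showed no common direction. Of 37 organic ion and ABC transporters Slc22a12 and Abcc4 were called, 5 were above and 5 below WT in all AEG1_MYC livers, and 16 had positive fold changes, with a median of -0.12. Of 30 genes of lipogenesis and triglyceride storage Mogat2 was called, and 15 had positive fold changes, with a median of -0.02. Of these 30, 2 (6.67%) were above and 5 (16.7%) below WT in all AEG1_MYC livers, against 9.81% and 9.65% of all genes. The urate carrier Slc22a12, known from kidney tubules, had 32.7, 47.2 and 1.67 CPM in AEG1_MYC livers, against 0.0610, 0.153 and 0 CPM in WT livers. Replicate 3 was far below the other two but above every WT liver (8.47 ± 1.29, edgeR adjusted p = 0.0334), and the fold change was 4.46 without replicates 1 and 2, not called. The 7 kidney tubule markers summed to 0.463, 0.415 and 1.32 CPM in AEG1_MYC and 2.07, 0.268 and 4.14 CPM in WT livers, with Kap, Slc5a2, Aqp2 and Slc12a1 at 0 reads. Mogat2, an acyltransferase that makes diacylglycerol in the intestine, had 19.9, 11 and 1.83 CPM in AEG1_MYC and 0.0305, 0.306 and 0.299 CPM in WT livers (5.73 ± 0.94, edgeR adjusted p = 0.0461). The 7 intestine markers summed to 780.2, 586 and 1697 CPM in AEG1_MYC and 1392, 2389.5 and 1413 CPM in WT livers, overlapping groups. Liver expressed 5 of these 7 enough to be tested, and Sis and Alpi had 0 reads in all 6 livers. The export pump Abcc4, which carries nucleotides and organic anions, had 53.6, 67.7 and 15.5 CPM in AEG1_MYC and 2.26, 1.99 and 2.56 CPM in WT livers (4.33 ± 0.51, edgeR adjusted p = 0.00869).

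Of 26 tested genes listed as amino acid carriers, the ammonium carrier Rhbg among them, Rhbg and Slc1a2 were called. They were also the called members of the pericentral list, so this is the same result. In all AEG1_MYC livers 7 of the 26 were above and 1 was below WT, with a median of 0.37. Without AEG1_MYC replicate 3 the calls were 5 higher and 1 lower, and without WT replicate 2 or 3 they were 0. The glutamine carrier Slc1a5 was just outside the threshold, at 4.79, 17.7 and 5.36 CPM in AEG1_MYC and 0.793, 1.23 and 1.75 CPM in WT livers (2.89 ± 0.52, edgeR adjusted p = 0.0564). The leucine carrier Slc7a5 had 6.05, 13.2 and 5.65 CPM against 3.36, 1.68 and 2.56 CPM in WT (1.70 ± 0.36, edgeR adjusted p = 0.0921). Both were above WT in each AEG1_MYC liver, with replicate 2 highest.

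Enzymes among the called genes served amines, inositol, lipids and esters. Monoamine oxidase A, Maoa, had 74.0, 87.0 and 48.5 CPM in AEG1_MYC livers, against 12, 18 and 14 CPM in WT livers (2.25 ± 0.24, edgeR adjusted p = 0.00345). Isyna1, which makes inositol phosphate from glucose phosphate, had 30.7, 33.9 and 12.9 CPM against 5.55, 3.90 and 4.87 CPM in WT (2.43 ± 0.34, edgeR adjusted p = 0.0226). Both were lowest in replicate 3, which still exceeded every WT liver. The very long chain fatty acid elongase Elovl7 had 8.03, 3.65 and 3.15 CPM against 0.397, 0.230 and 0.897 CPM in WT (3.29 ± 0.56, edgeR adjusted p = 0.0475). The carboxylesterase Ces2c had 40.5, 43.0 and 31.8 CPM against 17.4, 14.8 and 18.9 CPM in WT (1.17 ± 0.19, edgeR adjusted p = 0.0380).

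Secreted, membrane and cytoskeletal products made up a further group. Gm106, named Sbspon in RefSeq and encoding a protein with somatomedin B and thrombospondin domains, had 10.01, 8.30 and 3.72 CPM in AEG1_MYC livers, against 0.214, 0.383 and 0.299 CPM in WT livers (4.62 ± 0.42, edgeR adjusted p = 0.00160). Tissue plasminogen activator, Plat, had 19.6, 4.95 and 5.59 CPM against 0.458, 0.727 and 0.342 CPM in WT (4.29 ± 0.61, edgeR adjusted p = 0.0241). Plat was highest in replicate 1, where acute-phase genes were also high. Itm2a, an integral membrane protein, had 6.57, 8.98 and 5.75 CPM against 0.366, 1.03 and 1.41 CPM in WT (2.94 ± 0.42, edgeR adjusted p = 0.0241). Scn4b, a sodium channel subunit, had 78, 56 and 22 reads in AEG1_MYC livers and 0 reads in each WT liver, at least 45-fold higher against a floor of 3 reads over the WT group (edgeR adjusted p = 0.0288). The alpha-tubulin Tuba8, at 10.01, 28.2 and 5.91 CPM against 0.519, 0 and 0.128 CPM in WT, rose by 5.97 ± 1.01 (edgeR adjusted p = 0.0475).

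The rest of the called rises were of mixed kind. Adamtsl4, Fam83a, Tmc6, 9330182L06Rik (Elapor2 in RefSeq) and Niacr1 (Hcar2, a receptor for niacin and ketone bodies) rose by 3.17, 3.17, 1.11, 2.70 and 1.87 on the log2 scale, with edgeR adjusted p values of 0.0475, 0.0475, 0.0469, 0.0156 and 0.0352. Hrk, a promoter of apoptosis, had 2.91, 11.6 and 2.05 CPM in AEG1_MYC livers, against 0.305, 0.268 and 0.342 CPM in WT livers (4.16 ± 0.71, edgeR adjusted p = 0.0475). Csda, the cold-shock protein named Ybx3 in RefSeq, had 32.1, 37.8 and 26.6 CPM against 18.5, 17.6 and 17.9 CPM in WT (0.84 ± 0.14, edgeR adjusted p = 0.0444), and 26.1, 32.4 and 32.2 CPM in MYC livers. The noncoding 1500012F01Rik, Zfas1 in RefSeq, a host of small nucleolar RNAs, had 16.2, 26.2 and 20.1 CPM against 9.36, 10.8 and 8.50 CPM in WT (1.12 ± 0.19, edgeR adjusted p = 0.0475), and 19.6, 22.1 and 24.9 CPM in MYC livers. The zinc finger gene Bnc2 had 3.37, 6.96 and 3.72 CPM against 0.214, 0.421 and 1.11 CPM in WT (3.04 ± 0.52, edgeR adjusted p = 0.0476), and 4.07, 2.91 and 3.94 CPM in AEG1 livers. Those last 4 genes overlapped with a single transgenic group, Bnc2 with AEG1 and the others with MYC. The other 31 of the 35 genes called higher stood in every AEG1_MYC liver above all 9 other livers. All 35 were above every WT liver already. Of the 1342 genes with AEG1_MYC above every WT liver, 416 stood above all 9 others (3.04% of all genes).

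**Figure D3:**
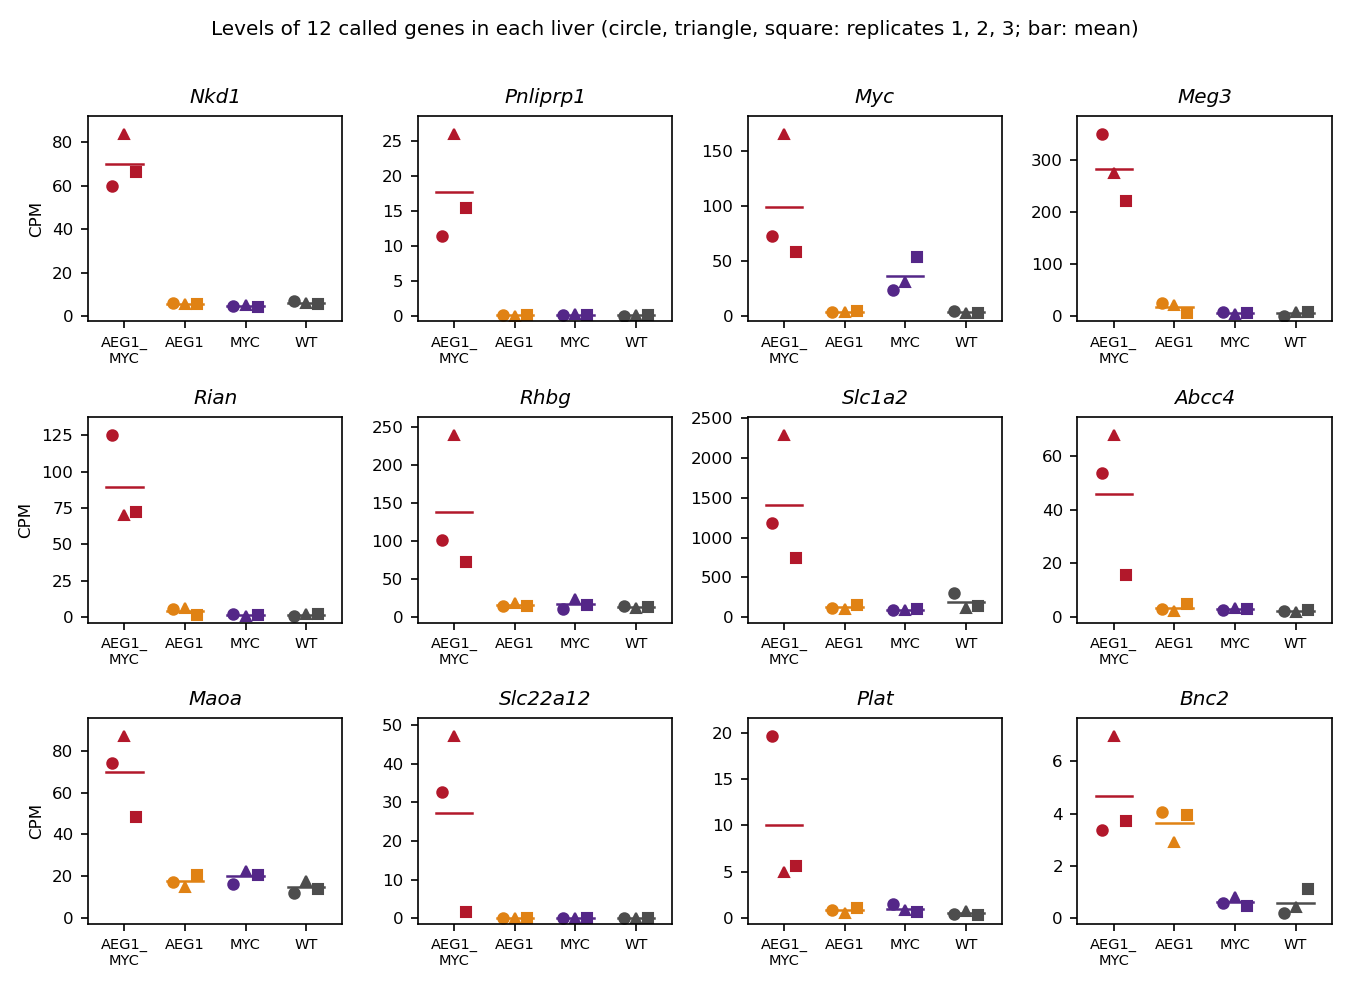
Each panel plots 1 called gene, with CPM on a linear axis from 0 and the 4 genotypes along the horizontal axis; circles, triangles and squares are replicates 1, 2 and 3 and bars are group means. AEG1_MYC livers stand above the rest in all panels but that of Bnc2, where AEG1 livers reach the same levels, and replicate 3 of AEG1_MYC is close to the other genotypes for Slc22a12.

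Beside the single transgenic livers, edgeR called 0 genes (0%) in AEG1 against WT and 0 (0%) in MYC against WT, with 536 (3.92%) and 475 (3.47%) at an unadjusted p under 0.05, while 44 (0.322%) were called in AEG1_MYC against AEG1 and 28 (0.205%) in AEG1_MYC against MYC. These comparisons share libraries and are given side by side only. Myc itself stood in every MYC liver above every WT liver, by 3.45 ± 0.47, and was not called there (edgeR adjusted p = 0.266). The 0 calls therefore do not show that the single transgenes had no effect. The interaction, the difference of AEG1_MYC from MYC minus that of AEG1 from WT, was called in 3 genes (0.0219%). For Nkd1 it was 4.02 ± 0.21 (edgeR adjusted p = 1.95e-05), for Gm106 4.65 ± 0.60 (edgeR adjusted p = 0.0476) and for the Toll-like receptor Tlr12 1.86 ± 0.21 (edgeR adjusted p = 0.0221). Tlr12 had 19.6, 25.1 and 24.3 CPM in AEG1_MYC livers, 7.56 to 9.04 CPM in AEG1, 10.1 to 13.7 CPM in MYC and 16.8, 14.4 and 13.8 CPM in WT livers. It lay highest in AEG1_MYC and lowest in AEG1 livers. Its difference between AEG1_MYC and WT was not called by edgeR (0.62, edgeR adjusted p = 0.115), while DESeq2 called it (DESeq2 adjusted p = 0.0106).

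Ribosomal proteins, mitotic genes, and G1 and replication genes had positive medians in AEG1_MYC livers with no member called by edgeR. Among other growth lists, translation and tRNA charging had a median of -0.03, with 14 of 32 positive. Ribosome biogenesis had 0.18, nucleotide, serine and one-carbon synthesis 0.26 and polyamine metabolism 0.29. In that order, they were -0.08, -0.16, 0.1 and -0.04 without replicates 1 and 2. EdgeR called 0, with 4, 6, 5 and 1 higher and 3, 1, 2 and 0 lower at unadjusted p. DESeq2 called 4, 2, 1 and 0 higher and 2, 0, 1 and 0 lower. Of 73 cytosolic ribosomal proteins tested 0 were called, 50 (68.5%) lay above WT in all AEG1_MYC livers, 0 lay below, and the median was 0.54 (0.38 without replicate 2). At unadjusted p 49 were higher and 0 lower, and DESeq2 called 23, all higher. Rpl13a had 101, 136 and 119 CPM in AEG1_MYC livers, against 79.9, 72.8 and 76.3 CPM in WT livers (0.64 ± 0.13, edgeR adjusted p = 0.0921). MYC livers had 105, 140.4 and 105 CPM of it, so the AEG1_MYC and MYC livers overlapped. Counts of ribosomal proteins are uncertain, since reads that align in several places, among them those of their pseudogenes, were not counted.

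All 30 mitotic genes had positive fold changes, with a median of 1.41, and edgeR called 0, with 19 higher at unadjusted p and 8 called higher by DESeq2. Of these 15 were above WT in all AEG1_MYC livers, and the median was 0.83 without replicate 2. Topoisomerase II alpha, Top2a, had 6.84, 14.3 and 5.52 CPM in AEG1_MYC and 3.11, 1.07 and 2.09 CPM in WT livers (2.08 ± 0.52, edgeR adjusted p = 0.121). The proliferation antigen Mki67 had 11.5, 20.2 and 11.3 CPM against 6.89, 1.34 and 3.03 CPM in WT (1.92 ± 0.58, edgeR adjusted p = 0.168). Replicate 2 was highest in both, and the groups did not overlap. In G1 and replication genes 0 of 37 were called, 13 were above and 2 below WT in all AEG1_MYC livers, with a median of 0.35. At unadjusted p 12 were higher and 1 lower, and DESeq2 called 3 higher and 1 lower.

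Genes lower in AEG1_MYC livers seldom passed the test. The one called fall was that of Gm13251, a zinc finger gene named Zfp992 in RefSeq, which had 0.297, 0.207 and 0.289 CPM in AEG1_MYC livers, against 0.946, 0.804 and 1.71 CPM in WT livers (-2.10 ± 0.33, edgeR adjusted p = 0.0354). Calpain 2, Capn2, a calcium-dependent protease, was just outside the threshold with 45.5, 46.1 and 57.7 CPM against 81.6, 77.9 and 75.5 CPM in WT (-0.65 ± 0.11, edgeR adjusted p = 0.0504). Hsd17b2, which inactivates oestradiol and testosterone, had 41.9, 48.5 and 82.8 CPM against 199.8, 160.2 and 133 CPM in WT (-1.51 ± 0.29, edgeR adjusted p = 0.0760). Glycogen phosphorylase of liver, Pygl, had 451, 366 and 471 CPM against 680.4, 702 and 665 CPM in WT (-0.67 ± 0.14, edgeR adjusted p = 0.0895). In these genes every AEG1_MYC liver was below every WT liver. The transcription factor Gtf2ird1 had 11, 13.8 and 13.7 CPM in AEG1_MYC and 22.4, 27.9 and 25.0 CPM in WT livers (-0.96 ± 0.18, edgeR adjusted p = 0.0704), with 13.9, 13.8 and 9.67 CPM in MYC livers.

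Cholesterol synthesis and uptake, the interferon response and the unfolded protein response had negative medians with 0 members called by edgeR. At unadjusted p 11 cholesterol genes were lower and 0 higher, 10 interferon genes were lower and 0 higher, and 8 genes of the unfolded protein and ATF4 response were lower and 3 higher. DESeq2 called Mvd lower in the first list, 3 GTPases lower in the second, Irgm1 among them, and Hyou1 lower and Atf3 higher in the third. Of 24 cholesterol genes 22 had negative fold changes, with a median of -0.45. In all AEG1_MYC livers 12 (50%) were below WT, against 9.65% of all genes. Mvd, mevalonate decarboxylase, had 13.7, 29.1 and 25.9 CPM in AEG1_MYC livers, against 58.9, 43.1 and 50.5 CPM in WT livers (-1.15 ± 0.31, edgeR adjusted p = 0.141). These genes follow the time of day in mouse liver, and the clock score given above differed between the groups. With that score as a covariate the median was -0.56. The groups did not overlap in the score, so this fit cannot tell collection time from genotype. The part of collection time was not tested. Of 36 interferon genes 32 had negative fold changes and 5 were below WT in all AEG1_MYC livers, with a median of -0.44. The GTPase Irgm1 had 49.2, 44.9 and 69.1 CPM in AEG1_MYC and 114, 114 and 116 CPM in WT livers (-1.07 ± 0.21, edgeR adjusted p = 0.0733). The interferon median was -0.01 without replicates 1 and 2. Of 25 unfolded protein and ATF4 genes 19 had negative fold changes and 7 were below WT in all AEG1_MYC livers, with a median of -0.45, among them the chaperone Hyou1 at 123, 115 and 179 CPM against 324, 582 and 206 CPM in WT (-1.42 ± 0.45, edgeR adjusted p = 0.175).

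Of the liver's other tasks, detoxification, clotting and fetal genes were read as lists, with 0 members called by edgeR in each. At unadjusted p 10 were higher and 2 lower among conjugation genes, 2 higher and 9 lower among clotting genes, and 10 higher and 3 lower among fetal genes, and DESeq2 called 5 higher and 1 lower, 1 higher and 3 lower, and 5 higher and 0 lower in these lists. Of 35 conjugation and NRF2 target genes 6 were above and 2 below WT in all AEG1_MYC livers, with a median of 0.24, and -0.01 without replicate 2. The glutathione transferase Gstm3 had 320.1, 922 and 133 CPM in AEG1_MYC livers, against 37.8, 51.5 and 50.3 CPM in WT livers, above WT in each (3.30 ± 0.71, edgeR adjusted p = 0.0934), though reads of this family's near copies are uncertain. Of 43 coagulation and complement genes 32 had negative fold changes, 8 were below and 1 was above WT in all AEG1_MYC livers, with a median of -0.25, and -0.03 without replicate 2. Of 25 fetal liver and liver tumour genes 5 were above and 2 below WT in all AEG1_MYC livers, with a median of 0.75, 0.44 without replicate 2 and 0.06 without replicates 1 and 2. The imprinted fetal RNA H19 had 4.13, 11 and 0.770 CPM in AEG1_MYC and 0.336, 0.268 and 1.67 CPM in WT livers, overlapping because replicate 3 lay below WT replicate 3 (2.84 ± 0.90, edgeR adjusted p = 0.176).

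Hepatocyte markers checked the labelled tissue, and their sum was high in all livers. It was 47870, 32971 and 67288 CPM in AEG1_MYC and 106030, 97367 and 97774 CPM in WT livers. Single genes could be far lower in replicate 2. Serpina1c had 839, 13.3 and 1265 CPM in AEG1_MYC and 1236, 1037 and 1492 CPM in WT livers. Albumin, Alb, had 39734, 24138 and 55931 CPM in AEG1_MYC and 92835, 83489 and 85711 CPM in WT livers (-1.13 ± 0.28, edgeR adjusted p = 0.122). It took 4.06%, 2.87% and 5.55% of the reads in AEG1_MYC and 9.02%, 7.63% and 8.06% in WT livers, below WT in each. All 5 hepatocyte markers had negative fold changes, with a median of -0.71 (-0.42 without replicate 2) and 0 called by edgeR. At unadjusted p 2 were lower, and DESeq2 called both, Alb and Ttr, lower. Bile duct markers summed to 72.9, 28.5 and 37.2 CPM in AEG1_MYC and 42.4, 76.1 and 58.6 CPM in WT livers, stellate and fibroblast markers to 249.7, 242 and 281 CPM against 304.5, 387 and 346 CPM, and endothelial markers to 278, 324.3 and 258 CPM against 315, 250.3 and 239 CPM. Among these 3 marker lists edgeR called 0 members, with 3 higher and 2 lower at unadjusted p, DESeq2 called the endothelial marker Lyve1 higher, and the part of cell composition in the results above was not tested.

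Replicate 1 differed from the rest in its acute-phase genes. Serum amyloid A, Saa1, had 3331, 4.30 and 41.0 CPM in AEG1_MYC livers and 45, 18.7 and 26.7 CPM in WT livers (5.22 ± 1.75, edgeR adjusted p = 0.187), and lipocalin 2, Lcn2, had 1210.3, 19.6 and 9.34 CPM against 8.60, 4.13 and 3.42 CPM in WT (6.25 ± 1.63, edgeR adjusted p = 0.134). Only replicate 1 was far above WT in both. Of the 32 acute-phase genes 23, 6 and 4 were above every WT liver in replicates 1, 2 and 3. The list's median was 0.54, and -0.48 without replicate 1. Its edgeR calls were 0, with 10 higher and 4 lower at unadjusted p and 3 called higher by DESeq2. Neutrophil markers summed to 64.0, 2.25 and 0.610 CPM in AEG1_MYC and 3.75, 0.613 and 0.470 CPM in WT livers, and Kupffer cell and macrophage markers to 541, 82.2 and 151 CPM against 374, 116 and 179 CPM, so both were highest in the same liver. Their part in the acute-phase values was not tested.

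Genes known to differ between male and female mouse liver also varied between the AEG1_MYC livers. Of 25 male-biased genes 18, 20 and 6 were below every WT liver in AEG1_MYC replicates 1, 2 and 3, with a median fold change of -0.65 and 0 called by edgeR, 1 higher and 2 lower at unadjusted p, and 1 higher and 1 lower by DESeq2. The median was -0.15 without replicates 1 and 2. Of 25 female-biased genes 0 were called by edgeR, 7 were higher and 1 lower at unadjusted p, and DESeq2 called 3 higher. The median was 0.81, against 0.13 without those replicates. Elovl3, a fatty acid elongase of male liver, had 49.7, 6.16 and 53 CPM in AEG1_MYC and 352, 449.6 and 223 CPM in WT livers (-3.23 ± 0.92, edgeR adjusted p = 0.150), below WT in each liver. Hao2, a hydroxyacid oxidase of female liver, had 4.23, 14.4 and 7.51 CPM against 0.397, 1.88 and 3.97 CPM in WT (2.08 ± 0.66, edgeR adjusted p = 0.176), above WT in each liver.

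**Figure D4:**
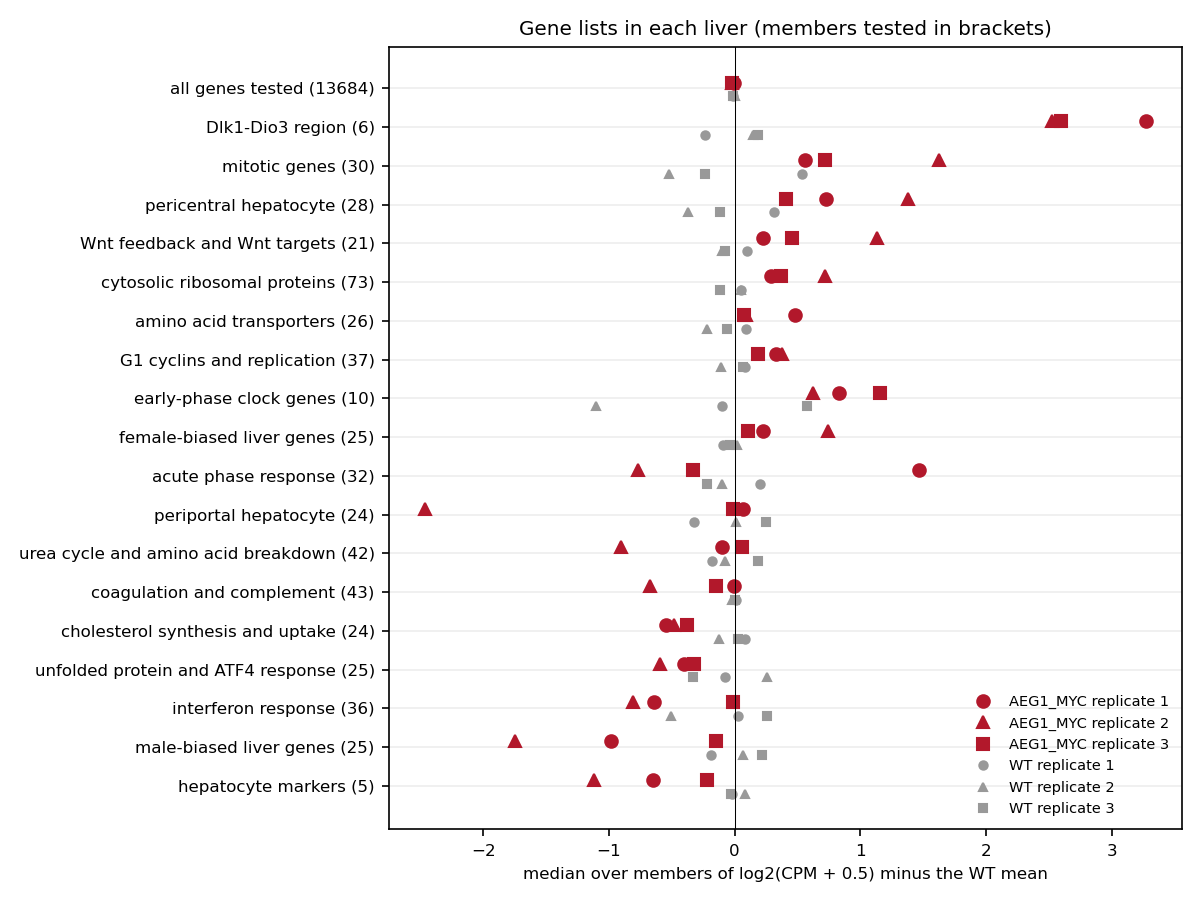
Points are the medians, over the tested members of each list, of log2(CPM + 0.5) minus the WT mean in 1 liver; red symbols are AEG1_MYC and grey symbols WT replicates. All 3 AEG1_MYC livers lie above the WT livers for the Dlk1-Dio3 region, ribosomal proteins, pericentral genes and Wnt targets. They do so too for mitotic, G1 and replication, female-biased and early-phase clock genes. They lie below the WT livers for cholesterol synthesis and hepatocyte markers. Replicate 2 is lowest for periportal genes, and replicate 1 alone is high for the acute phase.

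How far the called genes hold from liver to liver was read by leaving libraries out. Among the 35 called rises AEG1_MYC replicate 2 was highest in 25, replicate 1 in 10 and replicate 3 in 0, and replicate 3 was lowest in 26. Without AEG1_MYC replicate 1, 2 or 3 the number of called genes was 40, 18 and 687, of which 22, 14 and 36 were among the 36. Of the genes called higher without replicate 3, 417 were also tested with all libraries, and 303 of these (72.7%) were above every WT liver in replicate 3, as were 26.0% of all genes. Their median difference there was 0.41 on the log2 scale, against a fold change of 1.68 in the fit of the other 2 livers. Of 254 genes called lower without it, 141 (55.5%, against 26.0% of all genes) were below every WT liver in replicate 3. The median difference of the 254 in replicate 3 was -0.18, against -0.87 in the fit. Replicate 3 lay mostly past the WT livers in the same direction, by a smaller amount. The genes were picked against these same WT livers, which favours such values, so the share of all genes is no fair baseline. How far replicate 3 shares the changes cannot be judged from these shares.

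Control libraries mattered as well. Without WT replicate 1, 2 or 3 the number of called genes was 10, 6 and 8. Nkd1, Pnliprp1, Gm106, Maoa, Myc and Rian were called in each of these 3 fits and in each fit without 1 AEG1_MYC, AEG1 or MYC library. Without WT replicate 1, AF357359, Itm2a, Meg3 and Slc1a2 were called besides, and without WT replicate 3 Itm2a and Bnc2. Abcc4, Rhbg and 9330182L06Rik were called without any 1 AEG1_MYC, AEG1 or MYC library but not without WT replicate 1, 2 or 3. Fits that lacked 1 of the AEG1 livers called 18, 13 and 23 genes, and those that lacked 1 of the MYC livers called 13, 12 and 16. Without AEG1_MYC replicates 1 and 2 together, which leaves 1 liver assumed to vary like the other groups, Nkd1, Pnliprp1, Gm106 and Myc were called, at log2 fold changes of 3.42, 7.43, 3.64 and 4.15.

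**Figure D5:**
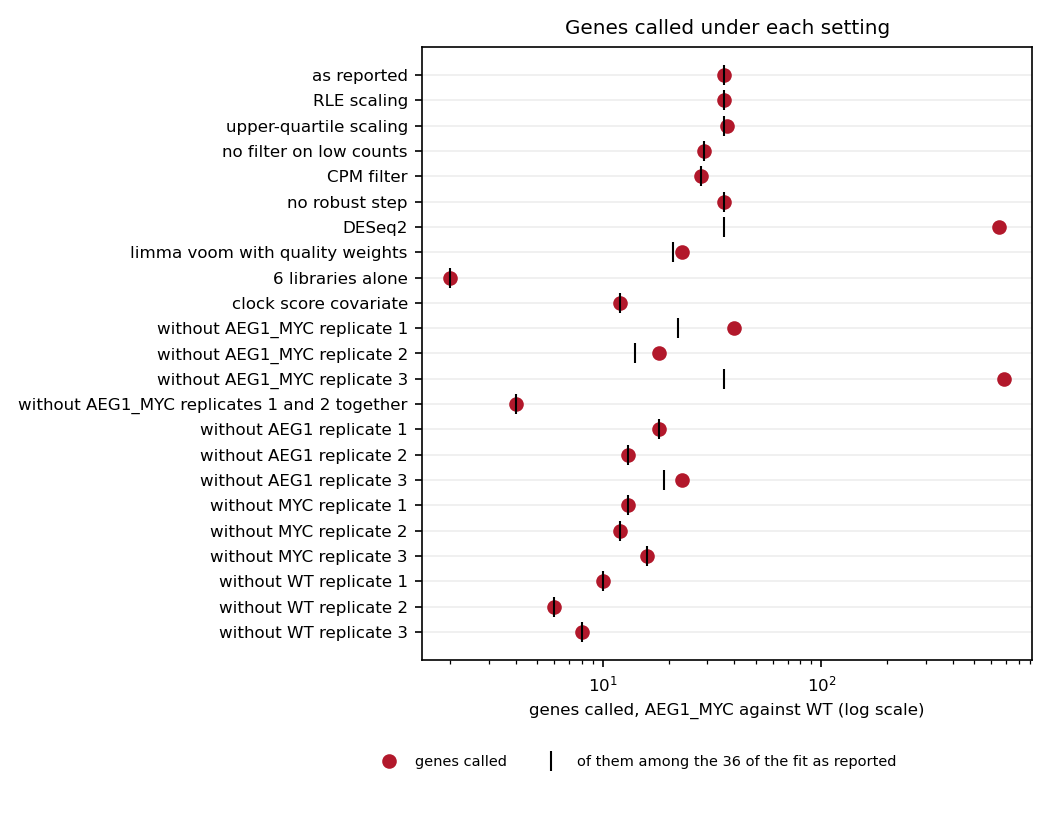
Red points give the number of genes called in AEG1_MYC against WT under each setting on a log axis, and black ticks how many of them were among the 36. The number runs from 2 with the 6 libraries alone to 687 without AEG1_MYC replicate 3.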

How the data were processed

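RNA of 12 whole livers was sequenced from Illumina TruSeq libraries, per the labels' protocols. The authors deposited raw read counts per gene, 1 table of 22609 genes per library. The submitters' processing notes name mm9, the aligner TopHat2 2.0.7, the counter HTSeq and, for base calls, CASAVA 1.8.2. Annotation and strand setting are not given in the sources used here. Overlapping and antisense genes therefore cannot be told apart. Reads aligned at several places, 46.5% to 58.0% of the values in a table, stood in 1 of 5 summary lines left out of library sizes and tests.

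The test was that of edgeR 4.0.16 under R 4.3.3 (TMM scaling, filterByExpr, robust quasi-likelihood F test, two-sided, 1 coefficient per genotype over 12 libraries). Of the 22609 genes, 4439 were at 0 throughout and 13684 were tested. An SE is the log2 fold change over the square root of F, with a median of 0.208. CPM uses TMM-scaled library sizes, and levels of lists are medians of log2(CPM + 0.5). Counts between replicates differed by far more than sampling noise. Nothing says that replicates came from separate litters, so p-values rest on the spread between these mice, pooled per gene over all genotypes. AEG1_MYC livers varied more, with a median SD of 0.292 against 0.170 to 0.198 in the other groups. The SEs of AEG1_MYC against WT may therefore be too small. Scaling by RLE or upper quartile, other filters, no robust step, DESeq2 1.42.0, limma 3.58.1 with quality weights, the 6 libraries alone, a clock covariate and left-out libraries were the alternatives.

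The 56 gene lists and the genes named were chosen with earlier results of these data known. Named are called genes, the 15 falls with the lowest p where groups were separated and CPM averaged 1 or more, up to 4 members per list by p, and some fixed genes. Genes outside this rule are said to be so or stand as markers. A few such genes, and promoter windows on mouse chromosome 18, were left out.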

Additional observations from a re-analysis of the deposited data

Results flagged for a closer look

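In Gm106 and Nkd1 the difference of AEG1_MYC from MYC livers was larger than that of AEG1 from WT livers, by a test of the interaction on the log2 scale. The interaction was tested in the fit as reported only, and its cause was not tested. Tlr12, also called for the interaction, is described above. For Gm106 the interaction was 4.65 ± 0.60 (edgeR adjusted p = 0.0476), and every AEG1_MYC liver, at 3.72 to 10.01 CPM, was above the other 9 livers, at 0.214 to 0.383 CPM. For Nkd1 it was 4.02 ± 0.21 (edgeR adjusted p = 1.95e-05), with AEG1_MYC livers at 59.9 to 83.9 CPM and the other 9 at 4.32 to 7.14 CPM. With edgeR 0 genes were called in AEG1 or MYC against WT, with 536 and 475 at an unadjusted p under 0.05. Myc itself was among the uncalled genes in MYC against WT, as given above, so 0 calls do not show an absence of effect.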

How the results depend on the processing

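The 36 called genes, 35 higher and 1 lower, were 36 with RLE scaling and without the robust step, 37 (35 and 2) with upper-quartile scaling, 29 without a filter and 28 with a CPM filter. The count was 652 (446 higher, 206 lower) with DESeq2, 23 (23 and 0) with limma quality weights, 2 (2 and 0) with the 6 libraries alone, 12 (12 and 0) with the clock score and 4 (4 and 0) without AEG1_MYC replicates 1 and 2. Leaving out 1 library gave 6 to 687 called, 6 to 433 higher and 0 to 254 lower. Every called gene kept its direction in each alternative that tested it. Uncalled genes near 0 changed sign when 1 library was left out: Mtdh ran between -0.14 and 0.04 (0.01 and 0.04 without AEG1_MYC replicate 2 or 3), Ccnd1 between -0.95 and 0.02 and Ctnnb1 between -0.08 and 0.01 (both highest without WT replicate 1), Wars between -0.25 and 0.04 (highest without WT replicate 2) and Wdr25 between -0.28 and 0.17 (highest without AEG1_MYC replicate 1, and 0.01 with upper-quartile scaling). Saa1 ran between -0.41 (without AEG1_MYC replicate 1) and 5.80, and Wnt4 was at 0.23 without AEG1_MYC replicates 1 and 2; the cause was not tested. No paired analysis was possible because the labels give mouse numbers that no 2 groups share, and replicate numbers follow accession order. Genes with few reads, such as Dlk1, could not be tested at this depth, and with 3 livers a group the median SE of 0.208 limits small differences.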

Other observations

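Serpina3c, a protease inhibitor secreted by hepatocytes and named here after its values were seen, had 0.562, 16.1 and 0.482 CPM in AEG1_MYC livers, against 384, 455 and 396 CPM in WT livers. Every AEG1_MYC liver was far below every WT liver, yet the difference was not called by edgeR (-6.17 ± 1.76, edgeR adjusted p = 0.150). DESeq2 called it (DESeq2 adjusted p = 0.00227). AEG1 livers had 388, 387 and 597 CPM and MYC livers 1.73, 521 and 294 CPM, so MYC replicate 1 was as low as the AEG1_MYC livers. Serpina genes lie together on chromosome 12 in RefSeq. Of 21 tested on that chromosome 9 were below and 2 above WT in all AEG1_MYC livers, with a median of -0.83. Of all genes, 9.65% were below and 9.81% above. Reads that align in several places were not counted, so the levels of any near copies among these genes are uncertain. Serpina3k had 4843, 148 and 4986 CPM in AEG1_MYC and 8233, 10015 and 9413 CPM in WT livers (-1.47 ± 0.82, edgeR adjusted p = 0.373), lowest in replicate 2.

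The imprinted neighbours Peg10 and Sgce were both lower in every AEG1_MYC liver than in every WT liver, without an edgeR call. DESeq2 called both lower, at DESeq2 adjusted p values of 0.0221 and 0.00356. Peg10, a gene of retroviral origin, had 0.0661, 0.326 and 0.353 CPM in AEG1_MYC and 3.75, 0.727 and 0.940 CPM in WT livers (-2.85 ± 0.83, edgeR adjusted p = 0.155). Sgce, epsilon-sarcoglycan, had 1.45, 1.48 and 2.38 CPM in AEG1_MYC and 7.66, 2.87 and 4.23 CPM in WT livers (-1.48 ± 0.34, edgeR adjusted p = 0.106). MYC livers held 0.207 to 0.501 CPM of Peg10 and 2.01 to 2.40 CPM of Sgce, near the AEG1_MYC livers.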
